A study of Homo sapiens with 12 samples.

Results

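The genes described here are 35 genes of the lysosome, given as a fixed list of gene symbols, among 51141 symbols measured in the series. They comprise 6 cathepsins, 6 glycosidases, 3 other hydrolases, the activator precursor PSAP, 4 membrane proteins, the channel MCOLN1, the transcription factors TFEB and TFE3, and 12 genes of the vacuolar proton pump (V-ATPase). All 35 were among the 14447 symbols that passed the filter on low counts, with totals over the 12 libraries between 457 counts for TFEB and 298195 counts for CTSB. RNA was sequenced from EA.hy926 cells, an established human hybrid line whose parents are endothelium of the umbilical vein and A549, a lung carcinoma line. There were 4 groups of 3 libraries. The TEPA+hypoxia group received 50 µM TEPA for 16 h and was then kept for 8 h in 1% oxygen, and the hypoxia group was kept for 8 h in 1% oxygen without TEPA. The TEPA group received the same 16 h of TEPA followed by 8 h at normal oxygen, and the control group had neither treatment. TEPA, which the labels do not spell out, is known as a polyamine that chelates copper. The series title places the comparison in the copper dependence of transcription by the hypoxia-inducible factor HIF-1. All groups come from 1 cell line, and separate cultures are not stated for the replicates.

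Lysosomes are acidic organelles in which hydrolases break down material delivered by endocytosis and autophagy. The V-ATPase acidifies them: its V1 sector in the cytosol hydrolyses ATP, and its V0 sector in the membrane carries protons inward. TFEB and TFE3 are transcription factors that drive many lysosomal genes through a DNA element with an E-box at its centre, known as the CLEAR element, and mTORC1 at the lysosomal surface keeps them in the cytosol when nutrients are plentiful. In endothelial cells, lysosomes degrade endocytosed receptors and matrix, and CD63 also marks the storage granules known as Weibel-Palade bodies.

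The promoter windows of the 5 members that hold TCACGTGA, the palindromic centre of the CLEAR element, are shown because TFEB and TFE3 are known to bind such elements. RefSeq windows (GRCh38.p14, 250 bases before to 50 after the start of each gene) were found for 24 of the 35 members, using the first window listed where a gene had several. CTSB, PSAP, LAMP2, ASAH1, ATP6V1A, HEXA, NAGLU, ATP6V1C1, ATP6V1B2, ATP6V0E1 and ATP6V1H were not matched. Each sequence below runs 5′ to 3′ from 120 bases before the start to 10 bases from it, with TCACGTGA in capitals. LAMP1 lies at chr13:113297119-113297248 on the plus strand, ATP6V0D1 at chr16:67481148-67481277 on the minus strand, GAA at chr17:80101461-80101590 on the plus strand, MCOLN1 at chr19:7522504-7522633 on the plus strand, and CTSA at chr20:45891215-45891344 on the plus strand.
LAMP1: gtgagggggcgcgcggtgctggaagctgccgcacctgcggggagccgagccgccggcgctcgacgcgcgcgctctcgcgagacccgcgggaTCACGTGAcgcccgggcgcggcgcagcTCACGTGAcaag
ATP6V0D1: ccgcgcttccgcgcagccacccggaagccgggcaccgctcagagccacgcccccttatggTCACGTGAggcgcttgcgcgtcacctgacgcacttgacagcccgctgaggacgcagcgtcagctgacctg
GAA: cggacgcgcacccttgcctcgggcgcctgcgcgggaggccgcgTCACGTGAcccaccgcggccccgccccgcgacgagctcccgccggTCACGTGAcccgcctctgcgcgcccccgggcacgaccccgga
MCOLN1: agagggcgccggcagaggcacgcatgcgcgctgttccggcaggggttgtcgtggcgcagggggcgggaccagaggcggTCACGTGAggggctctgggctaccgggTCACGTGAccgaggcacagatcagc
CTSA: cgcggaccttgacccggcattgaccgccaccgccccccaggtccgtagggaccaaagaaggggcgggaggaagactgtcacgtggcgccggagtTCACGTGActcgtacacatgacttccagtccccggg
LAMP1, GAA and MCOLN1 hold the 8 letters at 2 places each, and ATP6V0D1 and CTSA at 1 place each. Searched on both strands, TCACGTGA was found in 5 of the 24 matched members (20.8%), in 1.93% of the windows of 9568 tested genes and in 1.04% of the windows of 27305 genes. The shorter E-box CACGTG, which is contained in TCACGTGA, was found in 9 members (37.5%), in 10.4% of the tested genes and in 7.43% of all genes: ATP6V0B, NEU1, CTSD and CD63 hold it besides the 5 genes shown. ACGTG, a core of HIF binding sites that overlaps every CACGTG, was found in 13 members (54.2%), 27.2% of tested genes and 21.6% of all genes. Of the 8 windows listed for CD63, 1 held CACGTG and 4 held ACGTG. These matches describe letters in a window, and binding was not tested.

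Library totals ran from 13406858 to 24778944 counts, and the members took 0.728% to 0.919% of them. Levels are given as CPM, the usual depth-scaled counts, after TMM scaling of the library totals. Libraries 2 and 3 of the hypoxia group were unlike the other 10: on the first principal component (76.2% of the variance) they lay at 126 and 105, hypoxia 1 at 11.8 and the rest between -51.6 and -8.95. Their TMM factors were 0.772 and 0.838, against 1.03 to 1.08 elsewhere, and the share of counts in genes for ribosomal proteins was 8.94% and 7.72%, compared with 2.84% to 4.55%. Of 16 endothelial markers, 14 passed the filter, including PECAM1 and CDH5, while CLDN5 and EMCN were listed at 0. Their summed level was 7603 and 6987 CPM in hypoxia 2 and 3, and 4248 to 4978 CPM in the other libraries. The list was split: in hypoxia against control, 5 of the 14 were called higher (35.7%) and 6 lower (42.9%). Of all tested genes, 29.4% were called higher and 27.8% lower. The widest ranges over the 12 libraries were those of ENG (827 to 3390 CPM) and EGFL7 (329 to 1715 CPM). The epithelial list (4 of 14 tested; KRT7, KRT8 and KRT18 carry the sum, and CDH1, CLDN3, ESRP1 and NKX2-1 were at 0) summed to 18190 and 15540 CPM in hypoxia 2 and 3, and to 5441 to 7690 CPM elsewhere. The fibroblast and mural list (3 of 10 tested, COL3A1 and DCN at 0) summed to 45.4 and 53.5 CPM there, and 82.5 to 107 CPM elsewhere. Leukocyte and macrophage markers (1 of 12 tested, with PTPRC, FCGR3A, MARCO and TYROBP among those at 0) stayed between 4.11 and 6.76 CPM in all libraries. In RNA from whole cultures, fewer cells with a transcript and less of it per cell cannot be told apart. The part of the differences between libraries in the results for hypoxia was not tested; each result that rests on hypoxia 2 and 3 is given with and without them.

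In control, the members' levels, scaled to the length of 1 principal GENCODE transcript per gene, spanned from 0.81 ± 0.17 CPM per kb for TFEB to 432 ± 47.1 CPM per kb for CTSZ (SD, n = 3). The proteases stood at the top. CTSZ, a carboxypeptidase, was followed by the tetraspanin CD63 (356 ± 35.5 CPM per kb), the cysteine protease CTSB (356 ± 13.9), the dipeptidyl peptidase CTSC (329.5 ± 12.6), PSAP (324 ± 9.91), which is cut into the saposins that help degrade sphingolipids, and the aspartic protease CTSD (261 ± 23.0), all in CPM per kb. The ranges of mean ± SD overlapped between CTSZ and CD63, between CD63 and CTSB, and between CTSC and PSAP, and not between PSAP and CTSD. Within the proton pump, the proteolipid ring subunit ATP6V0C (150.3 ± 12.9 CPM per kb) and the V1 subunit ATP6V1F (127 ± 8.58 CPM per kb) were highest, and ATP6V1C1 (14.7 ± 0.62 CPM per kb) was lowest. TFE3 stood at 39.9 ± 0.97 CPM per kb, far above TFEB. The lowest structural and enzyme genes were LAMP2 (7.90 ± 0.35 CPM per kb) and the acid ceramidase ASAH1 (7.22 ± 0.59 CPM per kb).

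**Figure D1:**
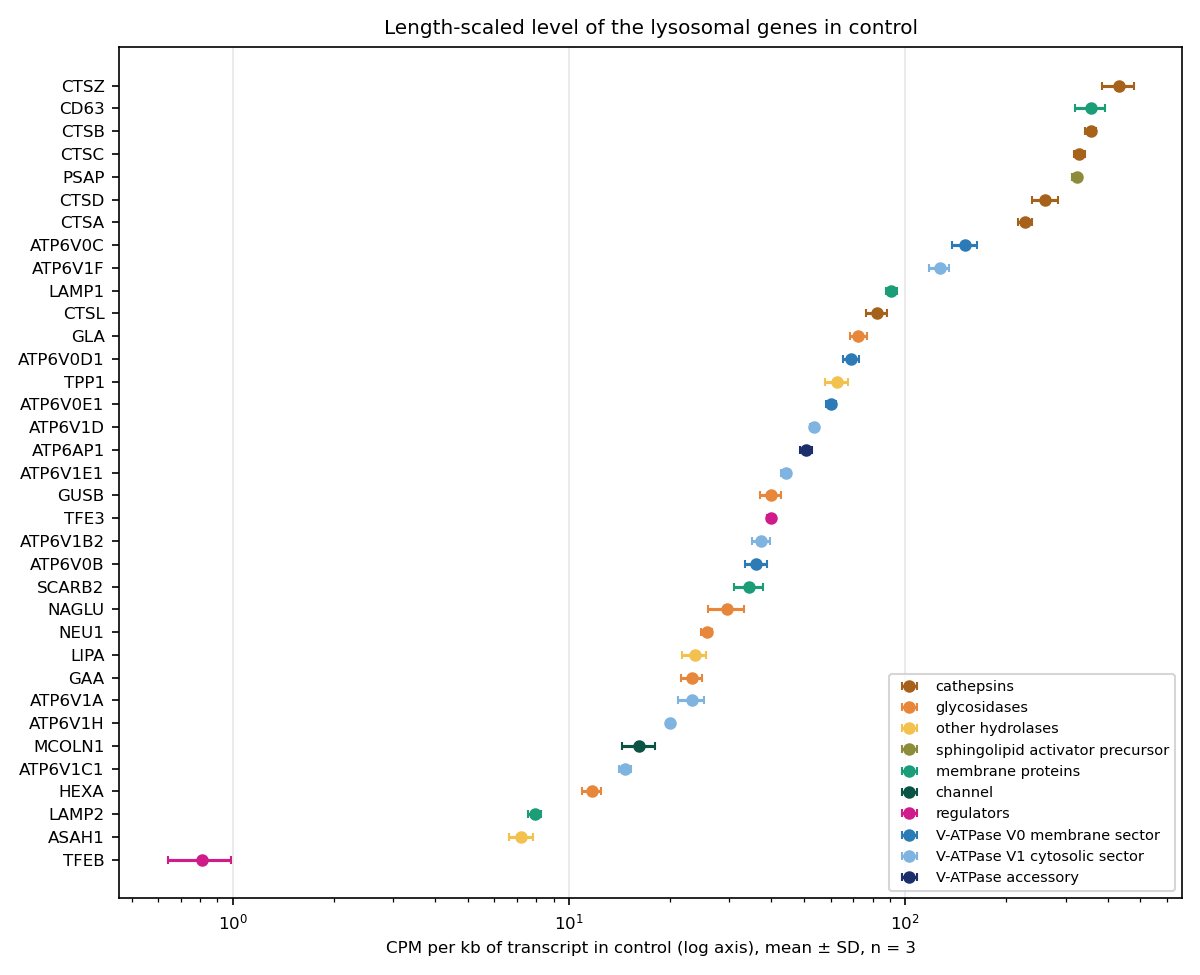
Length-scaled level of each of the 35 genes in the control group, as CPM per kb of transcript on a log axis (mean ± SD, n = 3 libraries), coloured by role. Cathepsins, CD63 and PSAP fill the top 7 places, from 227 to 432 CPM per kb, and TFEB is lowest at 0.81 CPM per kb.

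The first comparison asks how low oxygen alone changed these genes. In hypoxia against control, 20 of the 35 genes rose and 6 fell (edgeR quasi-likelihood test, adjusted p under 0.05), where 29.4% of all tested genes were called higher and 27.8% lower. All 6 cathepsins and the 4 V0 subunits on the list rose, 4 of the 6 glycosidases rose, and the V1 subunits split, with 3 higher and 3 lower. The median log2 fold change of the 35 genes was 0.35, against -0.01 for all tested genes. For 17 members all 3 hypoxia libraries lay above all 3 control libraries, and for 5 all lay below. Of all tested genes, 27.4% and 28.2% did so, so a lack of overlap between these groups was common. With library totals in place of TMM, the median of all genes moved to -0.24 and that of the 35 genes to 0.10, so the members lay 0.34 above all genes there and 0.36 above them with TMM, while 8 genes were called higher and 6 lower, where 20.1% and 33.5% of tested genes were.

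These calls rested on hypoxia 2 and 3. The median deviation of the 35 genes from the control mean was 0.47 and 0.43 log2 units in hypoxia 2 and 3, but 0.06 in hypoxia 1, the same as in control 3. Of the 35 genes, 21 had their highest level of all 12 libraries in hypoxia 2, which held the highest level of 31.8% of all tested genes. With both libraries left out, 0 of the 35 genes were called in either direction, against 0.283% of tested genes called higher and 0.23% called lower, and 3 members had an unadjusted p under 0.05. Their median log2 fold change was then 0.05, and the smallest adjusted p was 0.113, for ATP6V1C1. Fitting only the hypoxia and control groups in edgeR called 0 members, but also 0 of all 13876 genes tested there (0.0% in either direction), with 19 members and 6939 genes under an unadjusted p of 0.05. In the fit of all groups, DESeq2 called 27 members, where 30.5% of tested genes were called higher and 29.7% lower, and limma-voom called 25, where 28.0% and 29.6% were. The number called higher was 11 without control 1 (22.2% of tested genes) and 10 without control 2, hypoxia 2 or hypoxia 3 (20.7%, 19.4% and 20.4%). The number called lower was 3 without control 2, hypoxia 2 or hypoxia 3 (15.9%, 16.8% and 14.3% of tested genes). In hypoxia 1 alone, 19 members lay above all 3 control libraries and 6 below all 3, where 35.7% and 35.6% of all tested genes did.

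**Figure D2:**
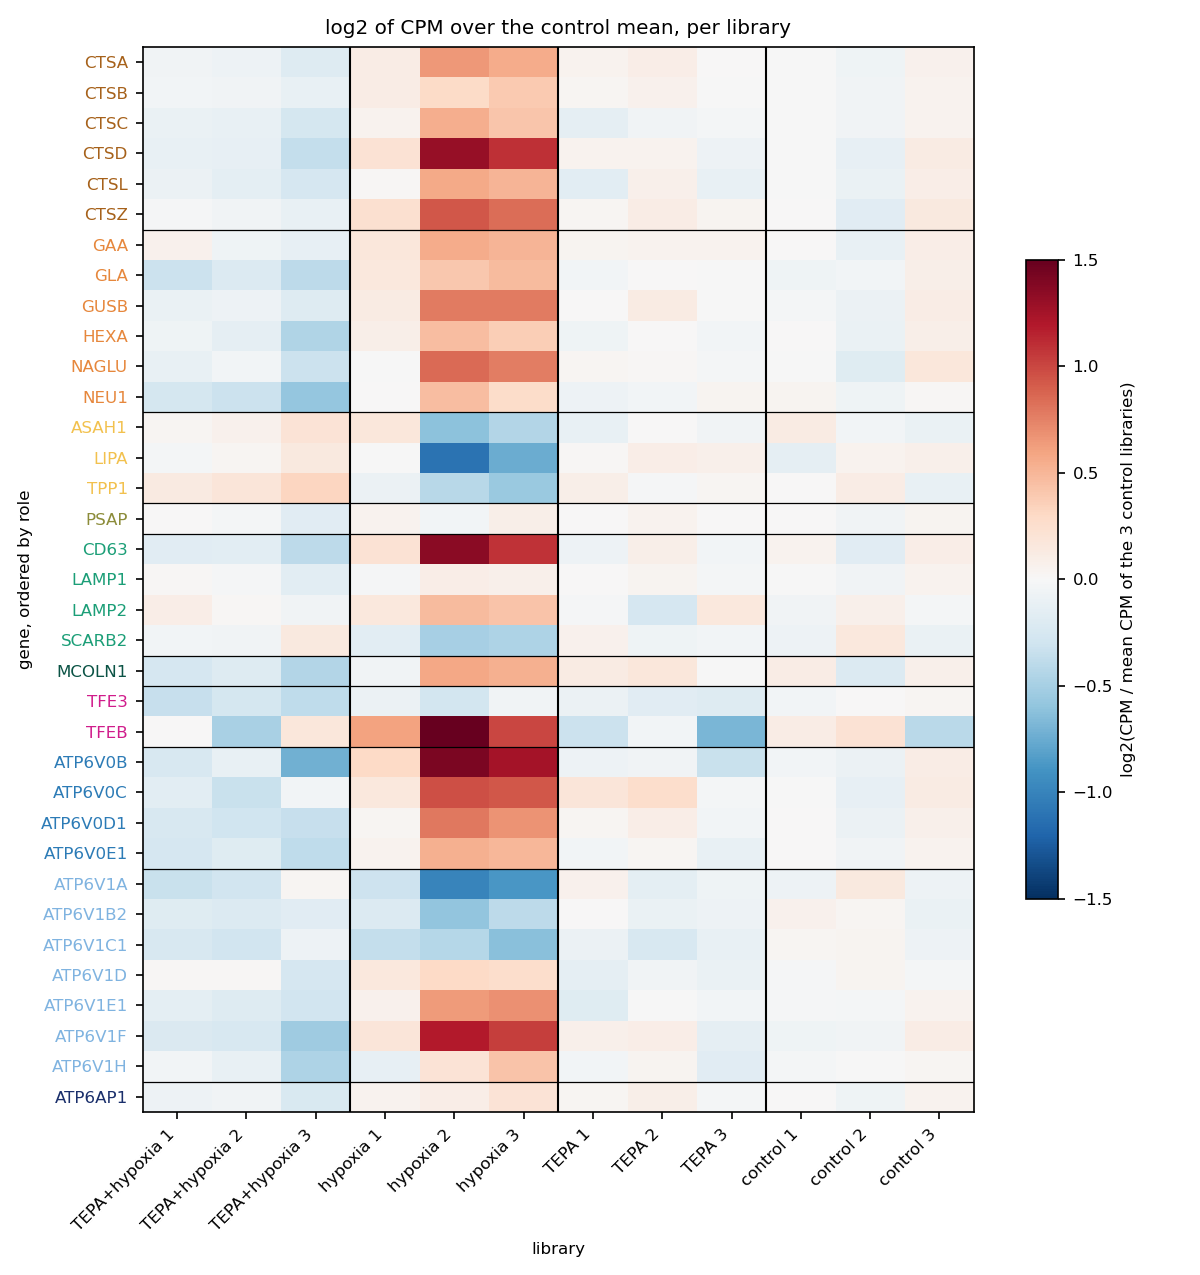
Log2 of CPM over the mean of the control libraries for the 35 genes (rows, ordered by role: cathepsins, glycosidases, other hydrolases, PSAP, membrane proteins, MCOLN1, regulators, V0, V1 and the accessory ATP6AP1) in the 12 libraries (columns). Hypoxia 2 and 3 differ most from control in both directions, hypoxia 1 lies close to control, and TEPA+hypoxia 3 is the lowest library for 24 of the 35 genes.

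The cathepsins are the main lysosomal proteases, and all but CTSL were among the 7 genes with the highest length-scaled level. CTSD had 514, 509 and 433 CPM in TEPA+hypoxia, 645, 1377 and 1182 CPM in hypoxia, 577, 576 and 527 CPM in TEPA, and 551, 508 and 606 CPM in control. CTSD, which is made as a proenzyme and matures in acid, was higher in each hypoxia library than in each control library, and hypoxia 2 and 3 lay far above hypoxia 1. Its log2 fold change in hypoxia against control was 0.94 ± 0.22 (SE; adjusted p = 0.0064), and 0.22 without hypoxia 2 and 3. CTSZ had 636, 623 and 597 CPM in TEPA+hypoxia, 762, 1235 and 1151 CPM in hypoxia, 657, 696 and 663 CPM in TEPA, and 648, 573 and 714 CPM in control. Here too hypoxia 2 and 3 were far above the rest, and hypoxia 1 lay just above the highest control library (log2 fold change 0.70 ± 0.16; adjusted p = 0.00618). CTSA had 469, 464 and 428 CPM in TEPA+hypoxia, 527, 765 and 719.6 CPM in hypoxia, 504, 524 and 491 CPM in TEPA, and 487, 465 and 511 CPM in control. CTSA, a carboxypeptidase that also protects the enzymes NEU1 and beta-galactosidase, rose by a log2 fold change of 0.46 ± 0.13 (adjusted p = 0.0111), and the hypoxia and control libraries did not overlap. Exons of NEURL2 and PLTP overlap those of CTSA on the opposite strand by up to 244 and 200 bases. On the same strand, exons of AC068580.4 overlap those of CTSD by up to 233 bases, and AC068580.4 is not among the symbols counted.

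CTSC had 593, 588 and 528 CPM in TEPA+hypoxia, 657, 920.5 and 842 CPM in hypoxia, 579, 612 and 618 CPM in TEPA, and 632, 609 and 657 CPM in control. CTSC activates serine proteases by removing dipeptides; hypoxia 1 lay within the control range while hypoxia 2 and 3 lay above it (log2 fold change 0.35 ± 0.12, adjusted p = 0.0258). CTSL had 169, 162 and 151 CPM in TEPA+hypoxia, 182, 267 and 256 CPM in hypoxia, 161, 189 and 166 CPM in TEPA, and 179, 167 and 192 CPM in control. CTSL, an endopeptidase that acts on matrix proteins as well as lysosomal cargo, showed the same arrangement (log2 fold change 0.39 ± 0.14, adjusted p = 0.0315). CTSB had 1343, 1332 and 1275 CPM in TEPA+hypoxia, 1487, 1685 and 1820.0 CPM in hypoxia, 1410.0, 1445 and 1379 CPM in TEPA, and 1377, 1329 and 1437 CPM in control. CTSB had the most counts of the 35 genes and one of the smaller changes: every hypoxia library was above every control library, with a log2 fold change of 0.27 ± 0.09 (adjusted p = 0.0267). The 6 log2 fold changes lay between 0.02 and 0.24 without hypoxia 2 and 3, and 0 were called.

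Glycosidases remove sugars from glycolipids, glycogen and glycosaminoglycans. GUSB had 86.1, 87.5 and 80.7 CPM in TEPA+hypoxia, 99.8, 158 and 157 CPM in hypoxia, 92.1, 99.9 and 91.4 CPM in TEPA, and 89.8, 86.7 and 99.2 CPM in control. GUSB, the beta-glucuronidase, was higher in each hypoxia library than in each control library (log2 fold change 0.59 ± 0.15, adjusted p = 0.0094). Its pseudogenes GUSBP1, GUSBP4 and GUSBP11 held 1350, 1097 and 1007 counts in all, beside 20746 for GUSB, so its level is uncertain by reads that such copies could take. NAGLU had 69.5, 72.9 and 60.2 CPM in TEPA+hypoxia, 74.6, 135 and 128 CPM in hypoxia, 76.6, 76.3 and 73.3 CPM in TEPA, and 75.0, 66.2 and 84.3 CPM in control. NAGLU, which acts on heparan sulfate, was called higher (log2 fold change 0.58 ± 0.19, adjusted p = 0.0223) although hypoxia 1 lay within the control range, and its log2 fold change was -0.01 without hypoxia 2 and 3. GAA had 88.0, 80.4 and 77.0 CPM in TEPA+hypoxia, 94.9, 124 and 119.9 CPM in hypoxia, 86.8, 87.5 and 87.0 CPM in TEPA, and 84.3, 77.8 and 90.1 CPM in control. GAA, the enzyme that degrades lysosomal glycogen, rose by 0.42 ± 0.11 on the log2 scale (adjusted p = 0.0103), with no overlap between the groups.

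GLA had 83.0, 89.4 and 78.5 CPM in TEPA+hypoxia, 115, 137 and 144 CPM in hypoxia, 100.5, 104 and 103 CPM in TEPA, and 99.1, 101 and 110.2 CPM in control. GLA, the alpha-galactosidase that is deficient in Fabry disease, showed separate groups: each hypoxia library was above, and each TEPA+hypoxia library below, all 6 libraries kept at normal oxygen. Its log2 fold change in hypoxia against control was 0.35 ± 0.10 (adjusted p = 0.0138) and 0.16 without hypoxia 2 and 3. HEXA had 58.8, 56.1 and 44.9 CPM in TEPA+hypoxia, 65.6, 84.5 and 79.2 CPM in hypoxia, 59.0, 61.8 and 59.6 CPM in TEPA, and 61.9, 57.3 and 65.3 CPM in control. HEXA, the alpha subunit of beta-hexosaminidase, did not pass the test (log2 fold change 0.31 ± 0.13, adjusted p = 0.0519) although the hypoxia libraries did not overlap control. NEU1 had 43.8, 42.0 and 35.2 CPM in TEPA+hypoxia, 52.9, 72.6 and 63.4 CPM in hypoxia, 49.8, 51.2 and 54.1 CPM in TEPA, and 54.2, 50.3 and 53.1 CPM in control. NEU1, the sialidase that forms a complex with CTSA, also did not pass (log2 fold change 0.26 ± 0.13, adjusted p = 0.0946), and hypoxia 1 lay within the control range.

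Of the 3 other hydrolases, 2 fell and 0 rose. LIPA had 64.6, 67.1 and 72.6 CPM in TEPA+hypoxia, 65.5, 30.4 and 39.3 CPM in hypoxia, 66.8, 70.7 and 69.1 CPM in TEPA, and 59.8, 68.0 and 69.6 CPM in control. LIPA, which splits cholesteryl esters and triglycerides, fell in hypoxia against control (log2 fold change -0.54 ± 0.21, adjusted p = 0.0474): hypoxia 1 lay within the control range and the value was -0.01 without the other two libraries. TPP1 had 246, 253 and 279 CPM in TEPA+hypoxia, 210.3, 167 and 152 CPM in hypoxia, 238, 221 and 228 CPM in TEPA, and 224, 241 and 206 CPM in control. TPP1, a tripeptidyl peptidase, was lowest in hypoxia 2 and 3 and highest in TEPA+hypoxia, where all 3 libraries lay above all other libraries. Its log2 fold change in hypoxia against control was -0.34 ± 0.12 (adjusted p = 0.0318). ASAH1 had 22.3, 22.9 and 25.2 CPM in TEPA+hypoxia, 24.6, 14.3 and 16.2 CPM in hypoxia, 20.4, 22.0 and 21.2 CPM in TEPA, and 23.9, 21.4 and 20.5 CPM in control. ASAH1 did not pass the test (-0.25 ± 0.18, adjusted p = 0.233); hypoxia 2 and 3 were the lowest libraries and hypoxia 1 lay above control. PSAP had 932, 913 and 828 CPM in TEPA+hypoxia, 964, 907 and 991 CPM in hypoxia, 933, 969 and 936 CPM in TEPA, and 937, 900.4 and 956 CPM in control. PSAP kept within a narrow band, with a log2 fold change of 0.03 ± 0.08 (adjusted p = 0.733).

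Among the membrane proteins, CD63 moved most. CD63 had 391, 394 and 335 CPM in TEPA+hypoxia, 511, 1120.0 and 929 CPM in hypoxia, 416, 468 and 429 CPM in TEPA, and 456, 389.6 and 472 CPM in control. Hypoxia 2 and 3 lay far above the control libraries, and hypoxia 1 was also above them (log2 fold change 0.96 ± 0.22, adjusted p = 0.00652; 0.22 without hypoxia 2 and 3). LAMP2 had 34.0, 32.1 and 30.7 CPM in TEPA+hypoxia, 35.4, 44.2 and 42.7 CPM in hypoxia, 31.4, 26.7 and 35.4 CPM in TEPA, and 30.8, 33.4 and 31.3 CPM in control. LAMP2, a structural glycoprotein that also serves chaperone-mediated autophagy, rose by 0.36 ± 0.13 on the log2 scale (adjusted p = 0.0317) with no overlap between the groups. LAMP1 had 248, 243 and 221 CPM in TEPA+hypoxia, 244, 263 and 259.9 CPM in hypoxia, 246, 252 and 239.9 CPM in TEPA, and 245, 237 and 255 CPM in control. LAMP1, an abundant glycoprotein of the lysosomal membrane, did not pass the test (log2 fold change 0.06 ± 0.08, adjusted p = 0.563), and its lowest library was TEPA+hypoxia 3. SCARB2 had 160.0, 159 and 183 CPM in TEPA+hypoxia, 148, 117 and 119.5 CPM in hypoxia, 172, 157 and 159.6 CPM in TEPA, and 156, 184 and 154 CPM in control. SCARB2, the receptor that carries glucocerebrosidase to lysosomes, was lower in every hypoxia library than in every control library (log2 fold change -0.36 ± 0.12, adjusted p = 0.022).

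MCOLN1 had 28.3, 29.4 and 24.9 CPM in TEPA+hypoxia, 32.4, 50.2 and 48.6 CPM in hypoxia, 36.6, 37.9 and 33.6 CPM in TEPA, and 36.3, 29.3 and 35.4 CPM in control. MCOLN1, the lysosomal channel that releases calcium, was called in neither direction in hypoxia against control (log2 fold change 0.38 ± 0.16, adjusted p = 0.0644), with hypoxia 1 within the control range and a value of -0.06 without hypoxia 2 and 3. TFEB had 1.92, 1.37 and 2.15 CPM in TEPA+hypoxia, 2.91, 5.36 and 3.83 CPM in hypoxia, 1.53, 1.85 and 1.19 CPM in TEPA, and 2.07, 2.21 and 1.45 CPM in control. TFEB rose by 1.07 ± 0.28 on the log2 scale (adjusted p = 0.00993), the largest value among the 35 genes, and the hypoxia libraries lay above all others; it rests on few reads, with 20 to 73 counts per library. Its log2 fold change was 0.60 ± 0.34 (adjusted p = 0.308) without hypoxia 2 and 3. TFE3 had 107, 113 and 105 CPM in TEPA+hypoxia, 128, 113 and 131 CPM in hypoxia, 129, 121 and 119 CPM in TEPA, and 133, 137 and 139 CPM in control. TFE3, the related factor with far more reads, did not pass (-0.14 ± 0.09, adjusted p = 0.195), although each hypoxia library was below each control library.

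The V0 sector forms the proton path, and its 4 subunits among the 35 genes were higher in hypoxia. Other V0 subunits measured did not all follow: ATP6V0E2 rose (0.85 ± 0.17, adjusted p = 0.00601), ATP6V0A1 (-1.76 ± 0.52, adjusted p = 0.0149) and ATP6V0A2 (-0.89 ± 0.30, adjusted p = 0.0255) fell, and ATP6V0A4 (-0.18 ± 0.24, adjusted p = 0.541) and TCIRG1 (-0.27 ± 0.18, adjusted p = 0.223) were not called, all on the log2 scale. Without hypoxia 2 and 3 the values were 0.31 for ATP6V0E2, -0.63 for ATP6V0A1 and -0.52 for ATP6V0A2, and none of the 3 was called. ATP6V0B had 39.6, 43.2 and 28.5 CPM in TEPA+hypoxia, 57.6, 124 and 111 CPM in hypoxia, 44.4, 45.1 and 37.2 CPM in TEPA, and 45.7, 44.0 and 50.8 CPM in control. ATP6V0B, a proteolipid of the rotating ring, had its 3 highest levels in the 3 hypoxia libraries (log2 fold change 1.06 ± 0.25, adjusted p = 0.00661; 0.30 without hypoxia 2 and 3). ATP6V0C had 158, 139.7 and 171 CPM in TEPA+hypoxia, 197, 346 and 337 CPM in hypoxia, 199.6, 212 and 174 CPM in TEPA, and 176, 162 and 192 CPM in control. ATP6V0C, the main proteolipid of the ring, changed by 0.73 ± 0.19 (adjusted p = 0.00881), and hypoxia 1 was below 2 of the 3 TEPA libraries. Exons of AC093525.1 and AC093525.2 overlap those of ATP6V0C on the same strand by up to 218 and 678 bases. Neither is among the symbols counted.

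ATP6V0D1 had 101, 96.2 and 93.6 CPM in TEPA+hypoxia, 121, 206 and 189 CPM in hypoxia, 121, 127 and 115 CPM in TEPA, and 119, 112 and 125 CPM in control. ATP6V0D1, the subunit that joins the ring to the central stalk, rose by 0.54 ± 0.16 (adjusted p = 0.0153) through hypoxia 2 and 3, with hypoxia 1 within the control range. ATP6V0E1 had 72.6, 76.1 and 66.1 CPM in TEPA+hypoxia, 89.2, 124 and 122 CPM in hypoxia, 84.0, 87.9 and 79.8 CPM in TEPA, and 86.4, 83.1 and 89.4 CPM in control. ATP6V0E1, a small subunit of the sector, showed the same arrangement, with hypoxia 1 just under control 3 (log2 fold change 0.37 ± 0.13, adjusted p = 0.025).

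The V1 subunits on the list did not move together. ATP6V1F had 76.8, 75.7 and 61.5 CPM in TEPA+hypoxia, 101, 204 and 183 CPM in hypoxia, 93.7, 95.1 and 81.2 CPM in TEPA, and 85.4, 85.8 and 96.1 CPM in control. ATP6V1F, a subunit of the central stalk, was higher in each hypoxia library than in all other libraries (log2 fold change 0.87 ± 0.21, adjusted p = 0.00737). ATP6V1E1 had 55.8, 54.1 and 50.6 CPM in TEPA+hypoxia, 64.5, 96.0 and 99.3 CPM in hypoxia, 54.4, 61.7 and 60.3 CPM in TEPA, and 60.9, 60.5 and 64.2 CPM in control. ATP6V1E1, of the peripheral stalks, rose by 0.49 ± 0.14 (adjusted p = 0.0158), with hypoxia 1 only just above the highest control library. ATP6V1D had 99.9, 99.9 and 82.8 CPM in TEPA+hypoxia, 109.9, 121 and 118 CPM in hypoxia, 89.7, 94.7 and 92.3 CPM in TEPA, and 97.5, 101 and 96.9 CPM in control. ATP6V1D, of the central stalk, rose by 0.24 ± 0.10 with TMM (adjusted p = 0.0491), but its value was -0.0033 with library totals. Its exons overlap those of EIF2S1 on the opposite strand by up to 253 bases, and the strand setting of the counting is not given in the sources used here.

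In contrast, the catalytic core fell. ATP6V1A had 84.3, 86.8 and 108 CPM in TEPA+hypoxia, 85.5, 53.7 and 57.8 CPM in hypoxia, 111, 96.4 and 102 CPM in TEPA, and 101, 117 and 101 CPM in control. ATP6V1A, which binds and hydrolyses ATP, was lower in each hypoxia library than in each control library, and hypoxia 2 and 3 were far below (log2 fold change -0.69 ± 0.17, adjusted p = 0.0077; -0.31 without hypoxia 2 and 3). ATP6V1B2 had 94.3, 93.0 and 95.3 CPM in TEPA+hypoxia, 93.0, 71.5 and 81.9 CPM in hypoxia, 108, 100.4 and 102 CPM in TEPA, and 112, 109 and 100.1 CPM in control. ATP6V1B2, its partner in the catalytic ring, fell with no overlap (-0.39 ± 0.10, adjusted p = 0.0106). ATP6V1C1 had 70.1, 67.5 and 78.5 CPM in TEPA+hypoxia, 64.5, 61.4 and 53.4 CPM in hypoxia, 77.7, 69.6 and 76.4 CPM in TEPA, and 84.3, 84.8 and 78.5 CPM in control. ATP6V1C1, which links the peripheral stalks to V0, fell likewise (-0.47 ± 0.10, adjusted p = 0.00619), and without hypoxia 2 and 3 its value (-0.36 ± 0.11) was no longer called.

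ATP6V1H had 45.9, 43.9 and 34.3 CPM in TEPA+hypoxia, 43.2, 54.5 and 63.5 CPM in hypoxia, 45.8, 48.7 and 42.1 CPM in TEPA, and 46.4, 46.9 and 48.3 CPM in control. ATP6V1H, a regulatory V1 subunit, was called in neither direction (0.19 ± 0.15, adjusted p = 0.295), with hypoxia 1 below all control libraries and hypoxia 2 and 3 above them. ATP6AP1 had 136, 138 and 122 CPM in TEPA+hypoxia, 149, 153 and 166 CPM in hypoxia, 146, 152 and 140.4 CPM in TEPA, and 144, 137 and 148 CPM in control. ATP6AP1, an accessory protein of pump assembly, did not pass (0.12 ± 0.09, adjusted p = 0.238), while its hypoxia libraries were all just above control.

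**Figure D3:**
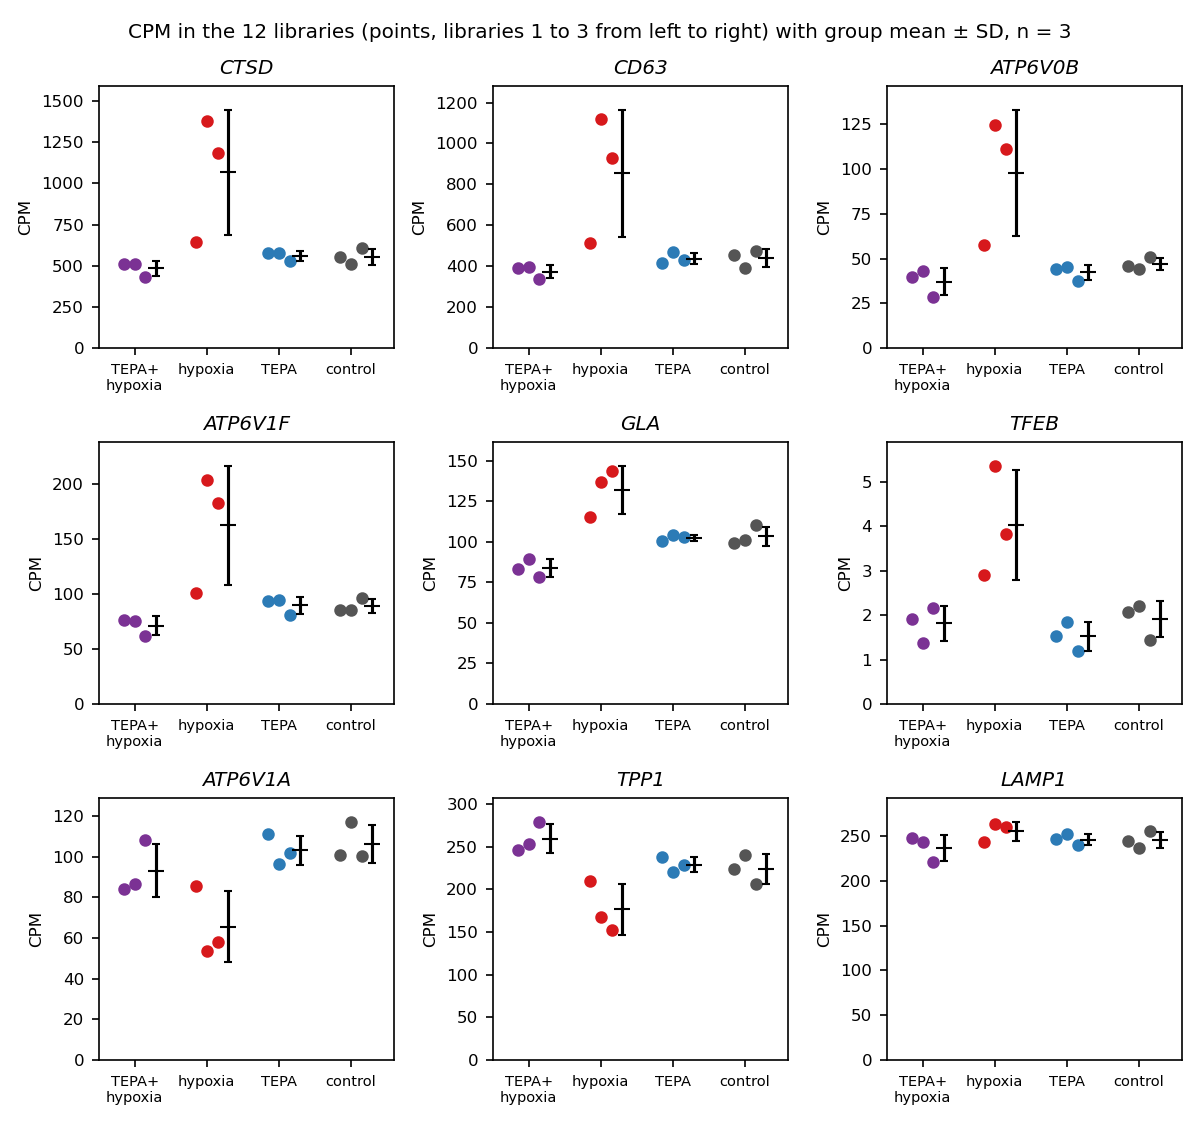
CPM of 9 of the genes in the 12 libraries (points, libraries 1 to 3 of each group from left to right) with the group mean and SD (n = 3) beside them; each vertical axis starts at 0. For CTSD, CD63, ATP6V0B and ATP6V1F hypoxia 2 and 3 stand far above hypoxia 1, ATP6V1A and TPP1 go the other way, and LAMP1 stays between 221 and 263 CPM.

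Members with GC-rich transcripts tended to have higher log2 fold changes in hypoxia, with exceptions. Across the 35 genes, Spearman's rho between log2 fold change and transcript GC content was 0.67, and -0.68 with transcript length; over 12613 tested genes with both known, these were 0.53 and -0.54. All points share the same 6 libraries and their scaling, so these values are descriptions. The 6 genes that fell had transcripts of 39.7% to 50.5% GC, and TFEB, CTSD, ATP6V0C, NAGLU and GAA, which rose, had transcripts of 63.2% to 64.4% GC. The GC range of the genes that fell also held ATP6V0E1 (44.1%), CTSC and ATP6V1D (45.2% each), ATP6V1E1 (46.6%) and GLA (49.2%), which rose, and LAMP2, with the lowest GC content of all members (37.7%), rose too. The rho with GC content was 0.39 for the members and 0.36 for all genes without hypoxia 2 and 3. When each library's trend with GC content and length was removed, 7 members were called higher and 4 lower, where 26.9% and 17.0% of 12613 genes were.

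Of the 26 members called with TMM alone, 4 were called in the same direction after that correction (CTSB, CTSC, LAMP2 and ATP6V1D). SCARB2 (0.38) and ATP6V1C1 (0.41) were then called higher, and ATP6V0C (-0.40) and ATP6V0D1 (-0.17) lower, the reverse of their calls with TMM alone. HEXA (0.78) was newly called higher, and MCOLN1 (-0.30) and TFE3 (-0.34) lower, all on the log2 scale. CTSD, CD63, ATP6V0B and ATP6V1F were no longer called. The part of GC content and length in the calls for hypoxia was not tested beyond these values.

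**Figure D4:**
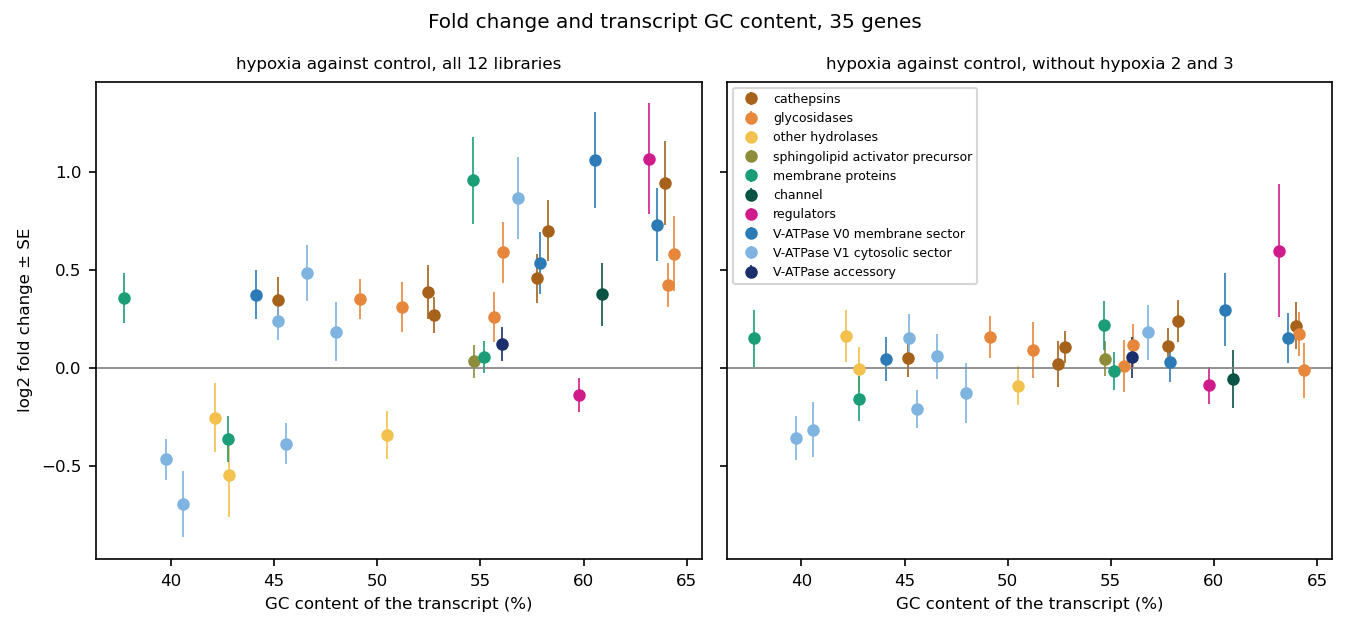
Log2 fold change ± SE in hypoxia against control (vertical) and GC content of the transcript in percent (horizontal) for the 35 genes, coloured by role, with all 12 libraries (left) and without hypoxia 2 and 3 (right). With all libraries, 5 of the 6 genes that fell lie between 39.7% and 45.6% GC, where ATP6V0E1, CTSC and ATP6V1D rose; LAMP2, at 37.7%, and the 5 with the highest GC content rose as well; without the pair most points lie near 0.

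The second comparison asks whether the copper chelator changed these genes in low oxygen. In TEPA+hypoxia against hypoxia, 25 of the 35 genes were lower and 5 were higher (adjusted p under 0.05), where 30.6% of tested genes were called lower and 30.9% higher. The median log2 fold change was -0.52, against 0.03 for all tested genes. For 24 members all 3 TEPA+hypoxia libraries lay below all 3 hypoxia libraries, and for 4 all lay above. Of all tested genes, 30.5% and 32.2% did so. All 6 cathepsins, all 6 glycosidases, the 4 V0 subunits on the list and MCOLN1 were called lower, and SCARB2, TPP1, LIPA, ATP6V1A and ATP6V1C1 were called higher. Hypoxia is the same set of libraries as in the comparison with control, so both comparisons share the values of hypoxia 2 and 3.

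Without those 2 libraries, 5 genes remained lower and 0 higher, where 7.17% of tested genes were called lower and 7.98% higher. The 5 are CTSD, CD63, GLA, ATP6V0B and ATP6V1F. For each, hypoxia 1 was above all 3 TEPA+hypoxia libraries, as their levels above show. A call of lower with hypoxia 1 as the only hypoxia library nearly fixes that order in advance. GLA (chrX:101397803-101408012, GRCh38) changed by -0.66 ± 0.10 with all libraries (adjusted p = 0.00217) and by -0.46 ± 0.10 without them (adjusted p = 0.0211). ATP6V0B (chr1:43974487-43978295) changed by -1.40 ± 0.25 and -0.62 ± 0.19 (adjusted p = 0.00217 and 0.0398). ATP6V1F (chr7:128862826-128865844) changed by -1.19 ± 0.21 and -0.49 ± 0.14 (adjusted p = 0.00217 and 0.0328). In all 5 the value was smaller without the pair, by the least for GLA.

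CD63 (chr12:55725323-55729707) changed by -1.19 ± 0.22 and -0.44 ± 0.12 (adjusted p = 0.00218 and 0.0331), and CTSD (chr11:1752752-1764573) by -1.14 ± 0.22 and -0.40 ± 0.12 (adjusted p = 0.0022 and 0.0387). In the fit without the pair the hypoxia group has 1 library, whose spread is taken from the other groups. With all libraries, the 5 called higher were LIPA (0.59 ± 0.21, adjusted p = 0.0315), TPP1 (0.55 ± 0.12, adjusted p = 0.00323), ATP6V1A (0.50 ± 0.17, adjusted p = 0.0237), SCARB2 (0.38 ± 0.12, adjusted p = 0.0152) and ATP6V1C1 (0.27 ± 0.10, adjusted p = 0.0406). Of these, TPP1 came closest to the threshold without hypoxia 2 and 3 (0.31 ± 0.10, adjusted p = 0.0555). Across the 35 genes, Spearman's rho between this log2 fold change and GC content was -0.65, against -0.53 for all genes, with the libraries and scaling shared by all points. Once the trends with GC content and length were removed, 17 members were called lower and 1 higher, where 31.9% and 18.1% of genes were, and SCARB2, ATP6V1A and ATP6V1C1 were then called lower. With the correction and without hypoxia 2 and 3, 3 members were called lower (CTSB, HEXA and GLA) and 0 higher, where 8.53% and 3.87% of genes were. GLA was the 1 gene of the 5 above that was called there (-0.30 ± 0.07, adjusted p = 0.0158). The part of GC content in this comparison was not tested beyond these values. With TMM alone, the number called higher was 2 without hypoxia 2 (23.2% of tested genes), 1 without hypoxia 3 (21.3%), 3 without TEPA+hypoxia 1 (27.1%) and 1 without TEPA+hypoxia 3 (21.8%).

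In cells that had received TEPA, no member was called in response to low oxygen. In TEPA+hypoxia against TEPA, 0 of the 35 genes were called in either direction by edgeR, where 0.0623% of tested genes were called higher and 0.0346% lower. DESeq2 also called 0 members (0.637% of tested genes higher and 0.367% lower), as did limma-voom (0.0623% and 0.0208%), and 3 members had an unadjusted p under 0.05 in edgeR. The median log2 fold change was -0.14, against 0.00 for all tested genes, and 29 of the 35 values were negative. The share of negative values over all tested genes was not counted. Of all tested genes, 46.7% lay below the value of LIPA (-0.016) and 54.5% below that of ATP6V1D (0.031). For 19 members all 3 TEPA+hypoxia libraries lay below all 3 TEPA libraries, and for 2 (TPP1 and ASAH1) all lay above, where 18.0% and 12.5% of tested genes did so. TEPA+hypoxia 3 was the lowest of all 12 libraries for 24 of the 35 members and for 21.6% of all tested genes. Across genes, Spearman's rho between GC content and the difference of a library from the control mean was -0.36 in TEPA+hypoxia 3, against 0.00 and -0.06 in TEPA+hypoxia 1 and 2; over the other 9 libraries it ran from -0.44 in control 2 to 0.55 in hypoxia 3, with 0.48 in control 3. Without TEPA+hypoxia 3 the members' median was -0.09. The part of that library in the lower levels was not tested.

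The largest values by size were in the channel, 2 glycosidases and 3 pump subunits, and none passed the test. MCOLN1 had -0.39 ± 0.16 on the log2 scale (adjusted p = 0.588), NEU1 -0.36 ± 0.13 (0.496), ATP6V1F -0.34 ± 0.21 (0.783), ATP6V0D1 -0.32 ± 0.16 (0.7), ATP6V0C -0.32 ± 0.19 (0.771) and GLA -0.29 ± 0.10 (0.482), and in each the 2 groups did not overlap. All 6 had a negative value under every alternative run. ATP6V0D1 was called lower by edgeR without hypoxia 2 and 3 (log2 fold change -0.31 ± 0.07, adjusted p = 0.0458), and 0 members were called higher. In that fit 0.842% of tested genes were called lower and 1.32% higher. The pair belongs to neither group compared, and bears on these values by way of the filter, the scaling and the pooled spread. Once trends with GC content and length were also removed, 9 members were called lower and 0 higher (GLA, NEU1, MCOLN1, ATP6V0D1, ATP6V0E1, ATP6V1A, ATP6V1B2, ATP6V1C1 and ATP6V1F), where 6.54% and 2.59% of genes were, while the correction with all 12 libraries called 0. ATP6V0D1 was also called lower when only the 2 groups were fitted (1.07% of tested genes) and without hypoxia 1 (0.683%). TEPA+hypoxia is the same group in both comparisons described, and its levels of ATP6V0D1 in CPM (93.6 to 101) lay below the other 9 libraries (112 to 206).

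TEPA at normal oxygen gave no called change in this list. In TEPA against control, 0 of the 35 genes were called by edgeR, DESeq2 or limma-voom, and 0.0% of tested genes were called higher or lower by edgeR; 0 members had an unadjusted p under 0.05, against 289 of all tested genes. Of all tested genes, DESeq2 called 1 higher and 5 lower, and limma-voom 0. The members' log2 fold changes ran from -0.33 for TFEB to 0.14 for ATP6V0C, with a median of -0.01. For 3 members (TFE3, ATP6V1C1 and ATP6V1D) all TEPA libraries lay below all control libraries and for 0 above, where 6.92% and 6.64% of tested genes did so. TFE3 had -0.15 ± 0.09 and TFEB -0.33 ± 0.29 on the log2 scale (adjusted p = 1 for both).

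**Figure D5:**
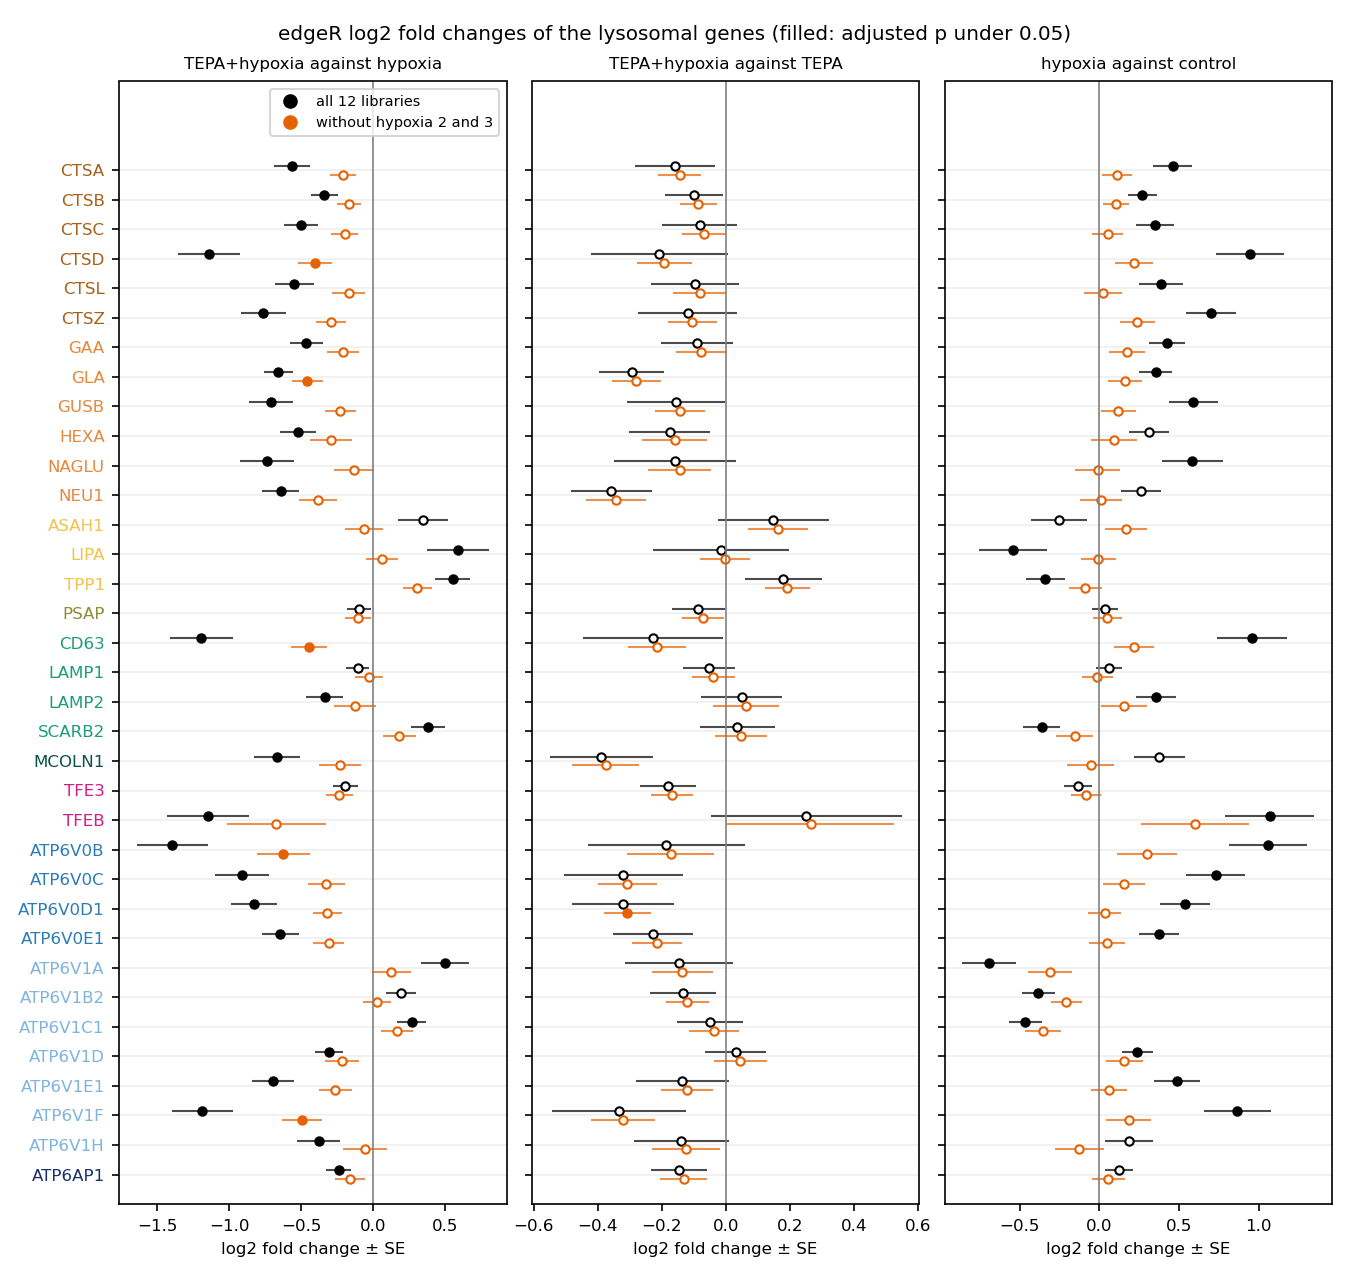
Log2 fold change ± SE of the 35 genes from the fit of all 12 libraries (black) and without hypoxia 2 and 3 (orange) in TEPA+hypoxia against hypoxia (left), TEPA+hypoxia against TEPA (middle) and hypoxia against control (right); filled points have an adjusted p under 0.05. Leaving out the pair removes all calls on the right, leaves 5 on the left (CTSD, CD63, GLA, ATP6V0B and ATP6V1F) and adds 1 in the middle (ATP6V0D1).

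Whether the response to low oxygen differed with TEPA was tested as an interaction, the change in TEPA+hypoxia against TEPA minus that in hypoxia against control. By this test 18 members were lower and 2 higher (adjusted p under 0.05), where 21.5% and 17.3% of tested genes were. The 18 were CTSA, CTSB, CTSD, CTSZ, all 6 glycosidases, CD63, MCOLN1, the 4 V0 subunits on the list, ATP6V1E1 and ATP6V1F; the 2 were TPP1 and ATP6V1C1. Differences ran from -1.25 ± 0.35 for ATP6V0B (adjusted p = 0.0243) to 0.52 ± 0.17 for TPP1 (adjusted p = 0.0354) on the log2 scale. LAMP1, PSAP, TFE3 and ATP6V1D were among the 15 not called. When hypoxia 2 and 3 were left out, 0 members and 0 of all tested genes were called by edgeR (4117 of all genes at an unadjusted p under 0.05), and 11 members had an unadjusted p under 0.05. Without control 1, control 2, hypoxia 3, TEPA 2 or TEPA+hypoxia 3, 0 members and also 0 of all tested genes were called in either direction (6176 to 6599 genes at an unadjusted p under 0.05). The number of members called lower was 7 without hypoxia 2 (9.74% of tested genes), and 11 without TEPA 1 or TEPA 3 (13.9% and 12.6%). The number called higher was 7 without hypoxia 1 (35.6%) and 1 without control 3 or TEPA+hypoxia 1 (14.7% and 11.9%). It was 0 without hypoxia 2, TEPA 1, TEPA 3 or TEPA+hypoxia 2, where 5.62% to 9.81% of tested genes were called higher.

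Other genes of the lysosome were counted from lists of further hydrolases, membrane proteins, pump subunits, sorting factors, TFEB regulators and autophagy genes. Of 36 tested hydrolases outside the 35 genes, 15 rose (41.7%) and 6 fell (16.7%) in hypoxia against control, where 29.4% of all tested genes rose and 27.8% fell; the list's median log2 fold change was 0.21. Examples are the ribonuclease RNASET2 (1.38 ± 0.27, adjusted p = 0.00601), the acid sphingomyelinase SMPD1 (0.57 ± 0.11, adjusted p = 0.00601) and the sialate esterase SIAE (0.95 ± 0.20, adjusted p = 0.00601). Of 29 further membrane proteins and transporters, 9 rose (31.0%) and 11 fell (37.9%), among them the potassium channel TMEM175 (1.03 ± 0.21), the two-pore channel TPCN1 (-1.38 ± 0.29) and the cholesterol transporter NPC1 (-0.78 ± 0.16), each with an adjusted p of 0.00601. The 17 other tested pump subunits and assembly factors held 5 that rose and 5 that fell (29.4% each), shares close to those of all tested genes. Of 22 sorting genes, 8 rose and 8 fell (36.4% each), and here the clathrin light chain CLTA rose (0.89 ± 0.20, adjusted p = 0.00618) while the heavy chain CLTC fell (-0.64 ± 0.14, adjusted p = 0.00623).

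Of 28 tested regulators of TFEB, 15 fell (53.6%, against 27.8% of all tested genes) and 6 rose (21.4%, against 29.4%), with a median log2 fold change of -0.42, against -0.01 for all tested genes. FLCN, which with its partner acts on the Rag GTPases that hold TFEB at the lysosome, fell (-0.55 ± 0.10, adjusted p = 0.00601) and had a similar value without hypoxia 2 and 3 (-0.59, adjusted p = 0.0601). RPTOR, the scaffold of mTORC1, fell (-1.62 ± 0.32, adjusted p = 0.00601), and the Ragulator subunit LAMTOR2 rose (1.62 ± 0.33, adjusted p = 0.00601). Of 40 autophagy genes, 8 rose and 14 fell, beside the same 29.4% and 27.8% of all tested genes, among them ATG101 (1.29 ± 0.25), VPS41 (-0.90 ± 0.18) and PIK3R4 (-0.81 ± 0.17), each with an adjusted p of 0.00601. With hypoxia 2 and 3 left out, 0 genes of these 6 lists were called in hypoxia against control by edgeR, with a smallest adjusted p of 0.0601.

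In TEPA+hypoxia against hypoxia, where 30.9% of all tested genes were called higher and 30.6% lower, the counts higher and lower were 5 and 18 of 36 hydrolases, 9 and 11 of 29 membrane proteins, 6 and 5 of 17 pump genes, 8 and 7 of 22 sorting genes, 12 and 7 of 28 TFEB regulators, and 14 and 14 of 40 autophagy genes. Genes of these lists that were called with and without hypoxia 2 and 3 included 3 Ragulator subunits, LAMTOR1 (-1.31 ± 0.23; -0.53 without them), LAMTOR4 (-2.27 ± 0.39; -0.77) and LAMTOR5 (-1.26 ± 0.21; -0.59), all lower. The autophagy adaptor SQSTM1 (-0.55 ± 0.10; -0.37) and the ATG8 family member GABARAP (-1.26 ± 0.22; -0.47) were lower too, as was the V0 subunit ATP6V0E2 (-1.01 ± 0.17; -0.47). TPCN1 (1.88 ± 0.29; 1.24) and the hydrolase-like PLBD2 (0.96 ± 0.15; 0.79) were higher. In TEPA+hypoxia against TEPA and in TEPA against control, 0 genes of the 6 lists were called by edgeR, with 7 and 4 under an unadjusted p of 0.05. The smallest p-values in TEPA+hypoxia against TEPA belonged to FLCN (-0.31 ± 0.09, adjusted p = 0.363), the Rag GTPase RRAGA (-0.35 ± 0.12, adjusted p = 0.455) and the sulfamidase SGSH (-0.32 ± 0.11, adjusted p = 0.471). Some widely expressed lysosomal genes, such as GALC with 2 counts and FUCA1 with 4 over all 12 libraries, are listed so low that a failed count cannot be told apart from absence, and no value is read from them.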

How the data were processed

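Poly(A) RNA libraries were made from TRIzol extracts with a directional kit, per the labels' protocols. Reads were aligned with HISAT2 2.1.0 to GRCh38, and DESeq is named among the tools, per the submitters' processing notes. No source used here names the read counter, the annotation or its strand setting. The deposited table, as the authors made it, holds raw counts per gene symbol, 1 column per library.

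Counts were fitted in edgeR 4.0.16 (R 4.3.3, limma 3.58.1) with the quasi-likelihood test: filterByExpr, TMM, 4 group means over 12 libraries, two-sided, Benjamini-Hochberg adjustment over 14447 genes, called at adjusted p under 0.05. Each SE is the absolute log2 fold change over the square root of F. CPM are counts scaled by total times TMM factor; the floor of 3 counts lay at 0.118 to 0.267 CPM and covers counting error only. Transcript length and GC content come from 1 principal GENCODE 29 transcript per gene and were known for 87.3% of tested genes. Alternatives comprised other scalings, filters, DESeq2 1.42.0, limma-voom, the replicate block, a spline correction for GC content and length, and libraries left out; those with library totals, and that with hypoxia 2 and 3 left out together with the correction, were added after seeing the data. Genes are named by this rule: all 35 members; values per library for up to 5 called members with the smallest p in each role and comparison and for TFEB, TFE3, MCOLN1 and LAMP1; up to 3 called genes of each further list. The values of ASAH1, PSAP and ATP6V1H, those of 5 further V0 subunits, and the uncalled genes named in the further lists, go beyond it. Members and lists were chosen with earlier results of these data known. Replicates of a group differed beyond sampling noise in each pair, and p-values measure the spread between these libraries only. Tested on simulated data, the fit estimated the simulated fold changes closely and called a minority of the larger ones.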

Additional observations from a re-analysis of the deposited data

Results flagged for a closer look

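The response to low oxygen differed between cells with and without TEPA for 20 of the 35 genes, by the interaction test in edgeR (adjusted p under 0.05): 18 were lower and 2 higher, where 21.5% and 17.3% of all tested genes were. The differences, on the log2 scale, are the change in TEPA+hypoxia against TEPA minus that in hypoxia against control. CTSA -0.62, CTSB -0.37, CTSD -1.15 and CTSZ -0.82 are the cathepsins. The glycosidases are GLA -0.65, GAA -0.51, HEXA -0.49, GUSB -0.75, NEU1 -0.62 and NAGLU -0.74. Of the membrane proteins and the channel, CD63 had -1.19 and MCOLN1 -0.77. The pump subunits are ATP6V0B -1.25, ATP6V0C -1.05, ATP6V0D1 -0.86, ATP6V0E1 -0.60, ATP6V1E1 -0.62 and ATP6V1F -1.20. The 2 called with a positive difference were TPP1 at 0.52 and ATP6V1C1 at 0.42. In low oxygen, TPP1 changed by 0.18 with TEPA and by -0.34 without it, and ATP6V1C1 by -0.05 and -0.47. The calls were lost without hypoxia 2 and 3, for these genes and for all others, as given above. Of the 35 values, 28 were negative with all libraries, as were 28 without hypoxia 2 and 3. Both fits share the TEPA+hypoxia, TEPA and control libraries, and most members were already lower in TEPA+hypoxia against TEPA. The 2 counts are therefore not separate support. Over all tested genes the median difference was 0.038 and 0.037, and the share of negative values was not counted.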

How the results depend on the processing

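Counts of called genes among the 35 moved by over 1.5 times as follows. Without hypoxia 2 and 3, 0 were higher and 0 lower in hypoxia against control, 0 and 5 in TEPA+hypoxia against hypoxia, 0 and 0 in the interaction (0 of all tested genes), and 1 was lower in TEPA+hypoxia against TEPA. Fitting only the 2 groups compared gave 0 and 0 in hypoxia against control, as it did for all 13876 genes tested there. It gave 1 higher in TEPA+hypoxia against hypoxia (15.8% of all tested genes) and 1 lower in TEPA+hypoxia against TEPA (1.07%). With no filter, 13 were higher in hypoxia against control, where 13.6% of all tested genes were, against 29.4% with the filter. In the interaction 1 was then higher and 11 lower, where 9.67% and 9.73% of all tested genes were, against 17.3% and 21.5%. With library totals, 8 were higher in hypoxia against control (20.1% of all tested genes). There 16 were lower in TEPA+hypoxia against hypoxia (20.4%) and 7 lower in the interaction (12.5%). The correction for GC content and length gave 7 higher in hypoxia against control (26.9% of all tested genes) and 1 higher in TEPA+hypoxia against hypoxia (18.1%). In the interaction it gave 0 higher (4.99%) and 5 lower (15.3%). The replicate block gave 0 higher and 14 lower in the interaction, where 14% and 17.5% of all tested genes were. Together with the correction, the block gave 6 higher and 3 lower in hypoxia against control (24.3% and 15.7% of all tested genes). The 2 together also gave 1 higher in TEPA+hypoxia against hypoxia (17.2%), and 0 higher (2.52%) and 3 lower (8.28%) in the interaction. Without hypoxia 2 and 3 and with the correction, 9 were lower in TEPA+hypoxia against TEPA (6.54% of all tested genes). The other comparisons then rest on 1 hypoxia library, so for them only signs are given here. Of the 35 log2 fold changes, 23 had the sign opposite to that with all libraries and TMM in hypoxia against control. In TEPA+hypoxia against hypoxia 12 did, as did 12 in the interaction. Leaving out 1 library at a time gave 10 to 24 higher (19.4% to 34.4% of all tested genes) and 3 to 7 lower (14.3% to 37.4%) in hypoxia against control. It gave 1 to 7 higher in TEPA+hypoxia against hypoxia (21.3% to 39.0%) and 0 to 1 lower in TEPA+hypoxia against TEPA (0.0% to 0.683%). The interaction had 0 to 7 higher (0.0% to 35.6%) and 0 to 24 lower (0.0% to 30.4%). There 5 of the 12 such fits called 0 of all tested genes.

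Single genes were followed over every alternative where they were called: all 26 in hypoxia against control, 10 in TEPA+hypoxia against hypoxia (the 5 higher, and the 5 lower with the smallest p) and all 20 in the interaction. Of these, the following changed sign, in log2 fold change. With the correction, hypoxia against control had CTSA -0.049, CTSZ -0.097, SCARB2 0.38, NAGLU -0.058, ATP6V0C -0.40, ATP6V0D1 -0.17, ATP6V1A 0.037, ATP6V1C1 0.41, ATP6V1F -0.11, and TEPA+hypoxia against hypoxia had SCARB2 -0.44, ATP6V1A -0.32, ATP6V1C1 -0.72, and the interaction had CTSZ 0.092, ATP6V0C 0.24, ATP6V1C1 -0.61. With the correction and the replicate block, hypoxia against control had CTSA -0.049, CTSZ -0.097, SCARB2 0.38, NAGLU -0.060, ATP6V0C -0.41, ATP6V0D1 -0.17, ATP6V1A 0.038, ATP6V1C1 0.40, ATP6V1F -0.11, and TEPA+hypoxia against hypoxia had SCARB2 -0.44, ATP6V1A -0.32, ATP6V1C1 -0.71, and the interaction had CTSZ 0.091, ATP6V0C 0.24, ATP6V1C1 -0.59. With library totals, hypoxia against control had ATP6V1D -0.0033. Without hypoxia 2 and 3, hypoxia against control had NAGLU -0.011. Without hypoxia 2 and 3 and with the correction, hypoxia against control had CTSA -0.075, CTSD -0.053, CTSL -0.070, CTSZ -0.025, CD63 -0.011, SCARB2 0.10, GUSB -0.022, NAGLU -0.23, TPP1 0.0013, LIPA 0.076, ATP6V0B -0.019, ATP6V0C -0.21, ATP6V0D1 -0.20, ATP6V0E1 -0.026, ATP6V1E1 -0.034, ATP6V1F -0.10, and TEPA+hypoxia against hypoxia had SCARB2 -0.17, ATP6V1A -0.22, LIPA -0.053, ATP6V1C1 -0.26, and the interaction had CTSZ 0.0087, NAGLU 0.14, ATP6V0C 0.033, ATP6V1C1 -0.14. None of the genes followed changed sign when 1 library was left out. Over all 35 genes, called or not, 5 changed sign without hypoxia 2 and 3 in hypoxia against control (NAGLU, and LAMP1, ASAH1, MCOLN1 and ATP6V1H, which were called neither with nor without the pair), 1 in TEPA+hypoxia against hypoxia and 2 in the interaction, and 15, 11 and 10 did with the correction. Further genes that changed sign under the correction, library totals or without the pair, and that were called either with all libraries and TMM or under that setting, follow. In hypoxia against control these were MCOLN1 -0.30 (called) with the correction, and MCOLN1 -0.30 (called) with the correction and the replicate block. In TEPA+hypoxia against hypoxia these were CTSZ 0.11, MCOLN1 0.058, ATP6V0C 0.32 with the correction, and CTSZ 0.11, MCOLN1 0.058, ATP6V0C 0.31 with the correction and the replicate block, and ATP6AP1 0.050 with library totals, and CTSA 0.011, CTSZ 0.025, NAGLU 0.11, MCOLN1 0.044, ATP6V0C 0.11 without hypoxia 2 and 3 and with the correction. In the interaction these were SCARB2 -0.46 (called) with the correction. Apart from settings built on fewer samples, the cause was not tested.

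Libraries with the same number did not deviate together (correlations -0.36 to 0.32 over 18 pairs, and 2 of 12 libraries closest to their own number), so the numbers were not taken as pairs. The replicate block gave 17 higher and 5 lower in hypoxia against control, where 27.2% and 26.1% of all tested genes were. In TEPA+hypoxia against hypoxia it gave 4 and 22, where 29.5% and 28.6% were. Depth limits TFEB most. With hypoxia 2 and 3 left out the hypoxia group is 1 library, assumed to vary like the other groups.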
